A study of Rattus norvegicus with 38 samples.

Results

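The 511 genes described here were higher in late-stage than in early-stage cortical neurons of both Wistar and SHRSP rats. They were chosen by measured values in the neuron libraries alone. Counts were expressed per 1000000 (CPM) of a library's total without its most abundant gene, ENSRNOG00000043866, and averaged per group as log2(CPM+1). A member had a late mean at least 1 log2 unit above the early mean in each strain and a mean of at least 10 CPM over the 19 neuron libraries. Of 32883 Ensembl gene IDs in the table, 8060 reached 10 CPM, leaving out the most abundant one, and 511 of these met the rule. That is 6.34% of the 8060. In Wistar neurons 832 IDs (10.3%) passed the fold threshold and in SHRSP neurons 643 (7.98%), with 321 passing in Wistar and 132 in SHRSP without the other strain. At the same fold in the opposite direction, 101 IDs were lower late in both strains.

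The libraries came from 19 numbered rats, each of which gave 1 library of laser-microdissected clusters of cortical neurons and 1 of laser-microdissected cortical blood vessels. Wistar rats are an outbred laboratory stock. SHRSP is the stroke-prone form of the spontaneously hypertensive rat, whose small cerebral vessels become diseased with age. Early-stage rats, 5 Wistar and 5 SHRSP, were 24 to 25 weeks old, and late-stage rats, 4 Wistar and 5 SHRSP, were 32 to 34 weeks old. No treatment or genetic alteration is given for any group. Because the Wistar rats were also sampled at both ages, a difference shared by the strains is a difference between age groups of both and not one of the hypertensive strain alone.

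The libraries were made with a 3′ end kit, which places reads near the end of a polyadenylated transcript, so that a count reflects transcripts and not their length. In tissue cut with a laser, a gene's level reflects the neurons, the processes and glia that lie between them and the intactness of the RNA. With bulk material, fewer cells of a type and less RNA per cell cannot be told apart. The files give Ensembl IDs without names, so the members have no symbols, functions or sequences here, and the labelled neurons and vessels could not be checked against marker genes.

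Totals ran from 1198386 to 4963429 counts per library. The share of ENSRNOG00000043866, which is no member, divided the animals. It was 4.34% to 10.7% of the counts in the neuron libraries of 8 early animals, called low-share below, and 20.4% to 35.5% in those of the other 11, called high-share. The high-share set held all 9 late animals, the early Wistar animal 349 and the early SHRSP animal 383. Stage and library set therefore cannot be told apart in 17 of the 19 animals, and 349 and 383 are the early animals that share a set with the late ones. What the sets stand for was not tested.

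**Figure D1:**
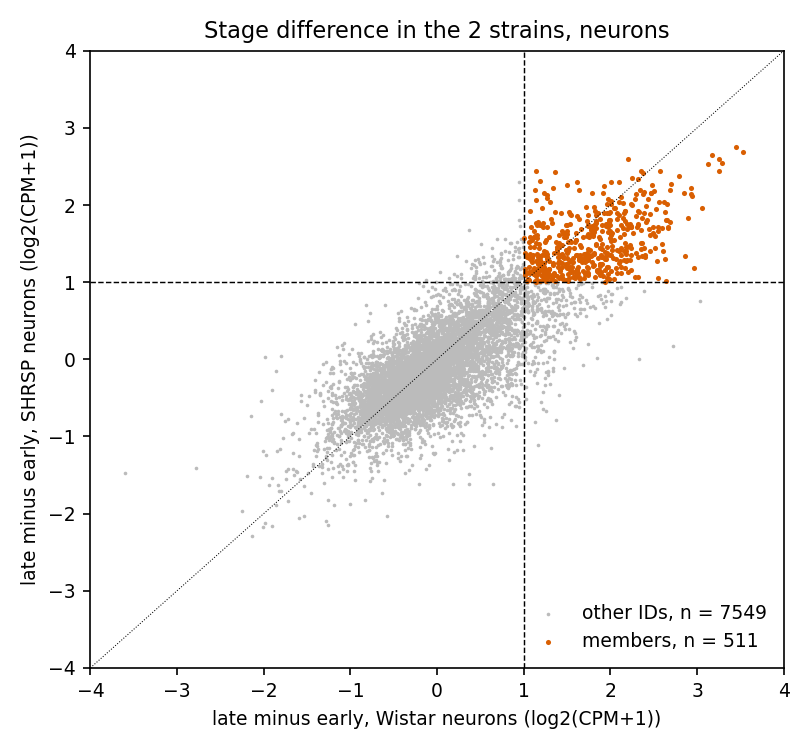
Late minus early group means on the log2(CPM+1) scale in Wistar (x axis) and SHRSP (y axis) neurons, for the 8060 IDs at 10 CPM or more; orange points are the 511 members and dashed lines mark the threshold of 1. The largest member difference is 3.53 in Wistar and 2.75 in SHRSP, and more members lie below the dotted line of equality (369 of 511) than above it. The early Wistar mean includes animal 343, the neuron library with the fewest IDs with a count.

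Among the members the late-minus-early difference had a median of 1.73 log2 units in Wistar neurons, with quartiles of 1.34 and 2.10 and a maximum of 3.53. In SHRSP neurons the median was 1.41, with quartiles of 1.22 and 1.74 and a maximum of 2.75. Over all 8060 IDs the medians were -0.07 and -0.13. These values chose the members and are given without a test. At least a 4-fold difference, 2 log2 units, was reached by 153 members in Wistar, by 60 in SHRSP and by 42 in both. The difference was larger in Wistar for 369 of the 511 members, against 4439 of the 8060 IDs. The early Wistar mean includes animal 343, whose neuron library had 9501 IDs with a count and no count at 175 members. Without that animal 432 IDs met the rule, 412 of them members. Whether the larger Wistar difference holds without it was not tested.

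The members were mostly of low to moderate level. Their mean neuron CPM had a median of 28.0 with quartiles of 16.6 and 50.5, against 41.6 with quartiles of 21.1 and 96.7 for the 8060 IDs. Members made up 9.55% of the 1842 IDs between 10 and 20 CPM, 7.65% of the 2667 between 20 and 50, 4.57% of the 1598 between 50 and 100 and 2.97% of the 1953 at 100 CPM or above. The 2 most abundant members, ENSRNOG00000030478 and ENSRNOG00000062127, are described further on.

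At the edge of the fold threshold, ENSRNOG00000029614 entered with a smaller difference of 1.002 in SHRSP and ENSRNOG00000012603 with 1.005 in Wistar. Just outside, ENSRNOG00000026319 had 0.997 and ENSRNOG00000031135 had 0.996. At the edge of the level minimum, ENSRNOG00000018876 entered with a mean of 10.04 CPM and ENSRNOG00000015503 with 10.13 CPM, while ENSRNOG00000020744 stayed out with 9.97 and ENSRNOG00000006967 with 9.95 CPM.

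The member level of each library, the median over the 511 members on the log2(CPM+1) scale, shows how the animals lay within the groups. Among early Wistar neurons it was 4.06 in animal 340, 2.45 in 343, 3.91 in 346, 4.90 in 349 and 3.56 in 368. Among late Wistar neurons it was 5.74 in animal 350, 4.93 in 351, 5.79 in 353 and 5.42 in 354. The late Wistar libraries all lay above the early ones, and animals 349 and 351 were the closest across the stages.

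Among early SHRSP neurons the member level was 3.66 in animal 374, 3.73 in 377, 3.46 in 380, 4.63 in 383 and 3.76 in 386. Among late SHRSP neurons it was 5.32 in animal 378, 5.78 in 379, 4.73 in 381, 5.28 in 382 and 5.51 in 384. Again the stages did not overlap, and animals 383 and 381 were the closest. The Wistar group means were 3.78 ± 0.89 early (SD, n = 5) and 5.47 ± 0.39 late (SD, n = 4). Those of SHRSP were 3.85 ± 0.45 early and 5.33 ± 0.39 late (SD, n = 5 each).

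Within groups the same libraries were often the highest or the lowest over the members. Animal 349 was the highest of the 5 early Wistar neuron libraries at 425 of the 511 members, and animal 383 the highest of the early SHRSP libraries at 405. Animal 343 was the lowest early Wistar library at 341 members, 175 of which had no count there; it also had 9501 IDs with a count, against 11987 or more in the other neuron libraries. In the late groups animal 351 was the lowest at 409 members and animal 381 at 417, while animal 353 was the highest at 275 and animal 379 at 366. The 511 members are therefore not 511 separate observations of a stage difference. Counts of the highest and lowest library are not given here for other IDs, so the pattern is not shown to be particular to the members.

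**Figure D2:**
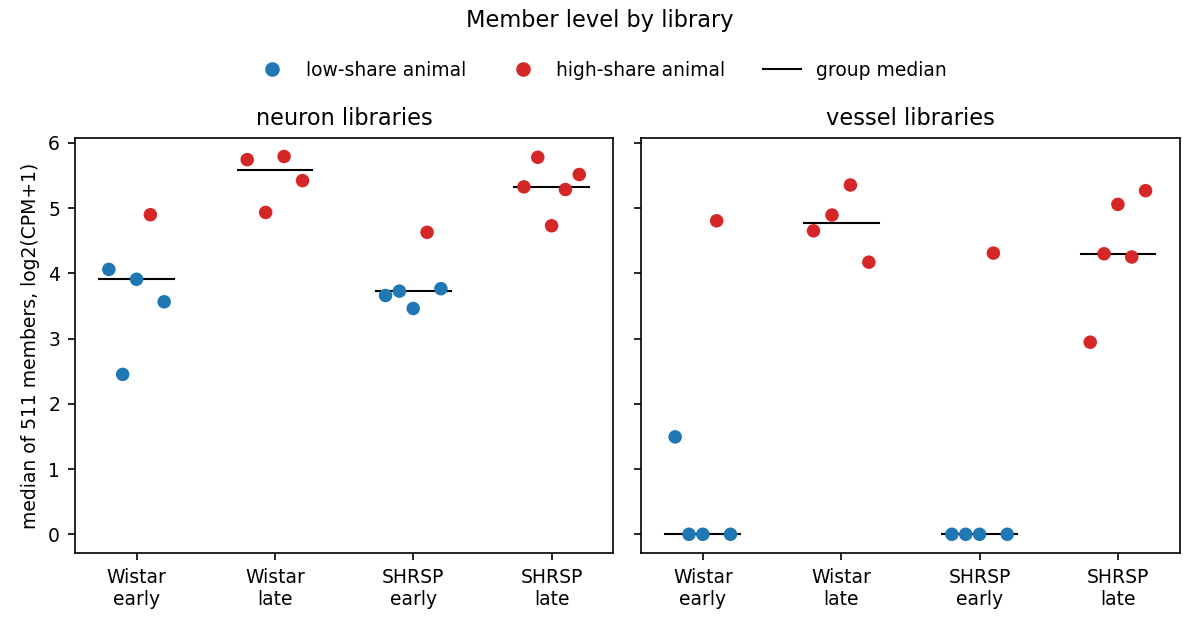
Median of the 511 members on the log2(CPM+1) scale (y axis) in each neuron (left) and vessel (right) library, by strain and stage; each point is 1 animal, blue for the low-share and red for the high-share set, and lines are group medians. In neurons the early animals 349 (4.90) and 383 (4.63) lie next to the lowest late animals, and in vessels, at 4.80 and 4.31, they lie among the late ones.

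Single members overlapped between the stages more often than their median did. All late Wistar neurons lay above all early ones at 220 members, against 5.01% of the 8060 IDs. In SHRSP this held for 267 members, against 6.74%, and in both strains for 116, against 1.92%. All 9 late neuron libraries lay above all 10 early ones at 55 members, against 0.893% of IDs. Set against the 8 low-share early libraries alone, 307 members had all 9 late libraries above, against 5.74% of IDs. The rule chose on this contrast, so these shares are a description.

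Where the 2 early high-share animals lay can be given as differences on the same scale. In Wistar neurons the late mean exceeded the low-share early mean by a median of 2.02 over the members, and it exceeded animal 349 by a median of 0.50, with 62 members at 1 or more and 478 above 0. Animal 349 itself exceeded the low-share early mean by 1.47, with 398 members at 1 or more. For the other 7549 IDs the 3 medians were -0.12, -0.12 and 0.02. Of those IDs 0.609% reached 1 and 37.2% lay above 0 for late minus animal 349, and 6.72% reached 1 for animal 349 minus the low-share mean.

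In SHRSP neurons the late mean exceeded the low-share early mean by a median of 1.62 and animal 383 by 0.69, with 124 members at 1 or more and 491 above 0. Animal 383 exceeded the low-share early mean by 0.97, with 244 members at 1 or more. Of the other 7549 IDs 1.40% reached 1 and 38.5% lay above 0 for late minus animal 383, and 2.44% reached 1 for animal 383 minus the low-share mean. The rule used all these neuron libraries and each set comparison rests on 1 early animal per strain, so the values are a description.

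**Figure D3:**
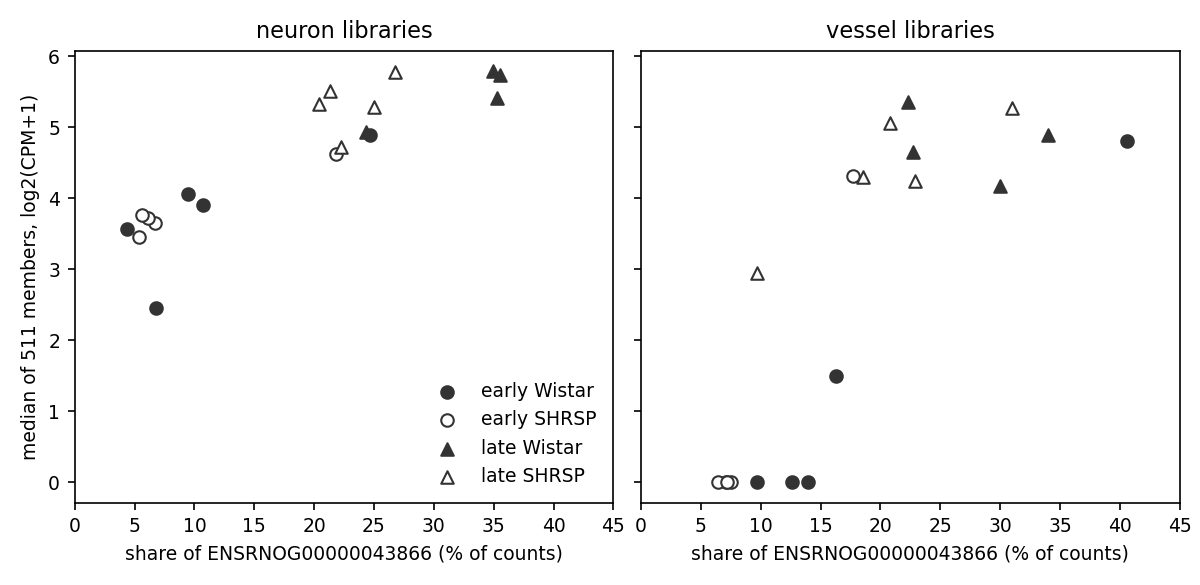
Share of ENSRNOG00000043866 in a library's counts (x axis, %) against the median of the 511 members on the log2(CPM+1) scale (y axis) in neuron (left) and vessel (right) libraries; circles are early and triangles late, filled for Wistar and open for SHRSP. The neuron libraries fall into a group at 4.34% to 10.7% with member levels of 2.45 to 4.06 and one at 20.4% to 35.5% with 4.63 to 5.79. The vessel shares of the same animals overlap, at 6.45% to 16.3% and 9.69% to 40.6%.

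The members' share of all counts moved in the same way. It was 3.13% to 6.41% in the low-share early neuron libraries, 10.1% in animal 349, 10.1% in animal 383 and 9.75% to 22.1% in late neurons. Most of it came from the 2 most abundant members. Without those, the other 509 members took 0.744% to 1.40% in the low-share early libraries, 2.62% in animal 349, 2.10% in animal 383 and 2.31% to 4.75% in late neurons.

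ENSRNOG00000043866 was left out of the totals, which matters for the size of the differences because its share was larger in late neurons. With it kept in the totals, the members' median difference was 1.33 in Wistar and 1.18 in SHRSP, and the medians over the 8060 IDs moved to -0.45 and -0.36. All 511 members stayed above 0 in both strains, with lowest values of 0.61 and 0.77, and 254 of them met the rule. With totals adjusted by TMM, a scaling that trims extreme genes, the medians were 1.72 and 1.43.

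The members with the largest mean difference over the strains were ENSRNOG00000047459 and ENSRNOG00000033894. In early Wistar neurons ENSRNOG00000047459 had 15.3 CPM in animal 340, 0 in 343, 8.70 in 346, 91.7 in 349 and 16.1 in 368, and in late Wistar neurons 139 in 350, 99.1 in 351, 204 in 353 and 129 in 354. In early SHRSP neurons it had 24.2 CPM in animal 374, 10.8 in 377, 7.78 in 380, 78.3 in 383 and 11.8 in 386, and in late SHRSP neurons 84.6 in 378, 195 in 379, 81.3 in 381, 157 in 382 and 137 in 384. The stages did not overlap in either strain, but animals 349 and 383 stood near the late range and far above the other early animals. The late-minus-early difference was 3.53 in Wistar and 2.69 in SHRSP.

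ENSRNOG00000033894 had 7.42 CPM in early Wistar animal 340, 0 in 343, 3.38 in 346, 42.6 in 349 and 4.33 in 368, and 66.8, 44.9, 103 and 60.7 in the late Wistar animals 350, 351, 353 and 354. In early SHRSP neurons it had 14.3 CPM in animal 374, 3.15 in 377, 7.78 in 380, 45.8 in 383 and 2.75 in 386, and late 59.0 in 378, 114 in 379, 44.1 in 381, 49.4 in 382 and 85.3 in 384. The Wistar stages did not overlap, and in SHRSP the early animal 383 lay above the late animal 381. The differences were 3.45 and 2.75.

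The most abundant member, ENSRNOG00000030478, averaged 69200 CPM over the neuron libraries. In early Wistar neurons it had 22939 CPM in animal 340, 20749 in 343, 44271 in 346, 61528 in 349 and 15534 in 368, and late 111621 in 350, 82758 in 351, 112882 in 353 and 106490 in 354. In early SHRSP neurons it had 33250 CPM in animal 374, 31419 in 377, 29718 in 380, 72540 in 383 and 31552 in 386, and late 99203 in 378, 151810 in 379, 67598 in 381, 111242 in 382 and 107697 in 384. The Wistar stages did not overlap, whereas the early SHRSP animal 383 lay above the late animal 381. The differences were 1.83 and 1.48.

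ENSRNOG00000062127 followed with a mean of 11545 CPM and differences of 1.40 in Wistar and 1.33 in SHRSP. Its early Wistar values ran from 3115 CPM in animal 343 to 13299 in 349 and its late Wistar values from 9561 in 351 to 23769 in 353. Its early SHRSP values ran from 4373 CPM in animal 380 to 7421 in 383 and its late SHRSP values from 6863 in 381 to 27447 in 384. The stages overlapped in both strains, through animals 349 and 351 in Wistar and through 383, 377 and 381 in SHRSP.

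**Figure D4:**
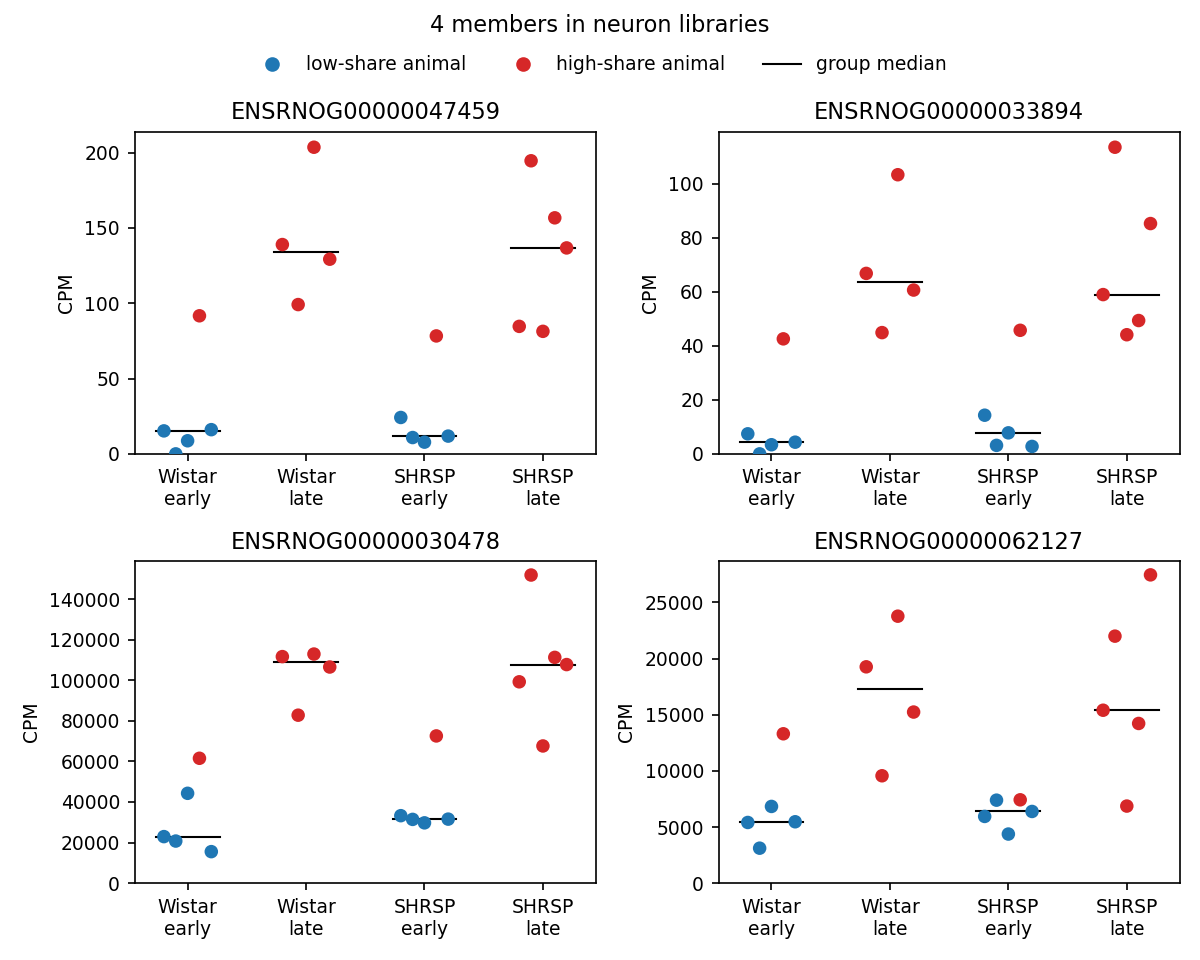
CPM (y axis, linear, from 0) of 4 members in each neuron library, by strain and stage; each point is 1 animal, blue for the low-share and red for the high-share set, and lines are group medians. ENSRNOG00000047459 reads 0 to 24.2 CPM in low-share early animals, 91.7 in animal 349, 78.3 in animal 383 and 81.3 to 204 in late animals.

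The strains differed most in the size of the difference at ENSRNOG00000016671, with 2.97 in Wistar and 1.19 in SHRSP, and in the other direction at ENSRNOG00000002680, with 1.14 and 2.45. ENSRNOG00000016671 had 8.25 CPM in early Wistar animal 340, 0 in 343, 6.28 in 346, 17.8 in 349 and 1.85 in 368, and late 46.7 in 350, 23.9 in 351, 52.2 in 353 and 40.7 in 354. Early SHRSP values were 6.26 CPM in animal 374, 9.79 in 377, 5.19 in 380, 18.3 in 383 and 5.50 in 386, and late ones 31.0 in 378, 40.5 in 379, 5.51 in 381, 15.9 in 382 and 24.4 in 384. Stages did not overlap in Wistar and overlapped in SHRSP, where animals 381 and 382 lay within the early range.

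ENSRNOG00000002680 had 3.30 CPM in early Wistar animal 340, 23.1 in 343, 7.25 in 346, 18.7 in 349 and 8.04 in 368, and late 23.3 in 350, 18.2 in 351, 32.2 in 353 and 20.3 in 354. Early SHRSP values were 0 CPM in animal 374, 6.64 in 377, 4.82 in 380, 13.2 in 383 and 3.54 in 386, and late ones 20.7 in 378, 34.7 in 379, 16.9 in 381, 27.3 in 382 and 34.3 in 384. Here the stages overlapped in Wistar, through animal 343 and animal 349, and not in SHRSP. Because the rule asked for a difference in both strains, its change with strain was not tested in neurons.

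The strain comparison itself was not part of the rule, and it asks whether the members differed between SHRSP and Wistar neurons over both stages. No member passed an adjusted p of 0.05 in edgeR's quasi-likelihood test, against 0.385% of the 8060 IDs called higher in SHRSP and 0.347% called lower. The members' median log2 fold, SHRSP minus Wistar, was -0.08, with quartiles of -0.23 and 0.07, against 0.00 over the IDs tested. At an unadjusted p under 0.05 there were 12 members of 511, against 8.33% of the 8060 IDs, and the smallest edgeR adjusted p among the members was 0.159. Without animal 343, the library with the fewest IDs, 3 members were called lower in SHRSP, against 0.434% of the 8060 IDs. On the log2(CPM+1) scale the members' median strain difference was 0.07 early and -0.14 late, given as values only. A missed threshold does not show that the strains were alike.

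The member with the smallest p in this comparison was ENSRNOG00000031993. It had 18.1 CPM in early Wistar animal 340, 6.09 in 343, 14.5 in 346, 19.5 in 349 and 21.3 in 368, and late 40.3 in 350, 30.7 in 351, 32.2 in 353 and 30.5 in 354. Early SHRSP values were 2.68 CPM in animal 374, 3.15 in 377, 9.64 in 380, 12.9 in 383 and 13.4 in 386, and late ones 16.9 in 378, 21.3 in 379, 16.9 in 381, 13.1 in 382 and 14.0 in 384. The strains did not overlap late, and they overlapped early through animal 343. The log2 fold was -0.93 (SE 0.28, edgeR adjusted p = 0.159).

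ENSRNOG00000021685 came next among members lower in SHRSP, with a log2 fold of -1.29 (SE 0.47, edgeR adjusted p = 0.377). The members higher in SHRSP with the smallest p were ENSRNOG00000001294 at 0.64 (SE 0.34, edgeR adjusted p = 0.71) and ENSRNOG00000007625 at 0.74 (SE 0.43, edgeR adjusted p = 0.76).

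The vessel libraries of the same animals were not used by the rule, and they show whether the members also differed between stages in another material. The sets were defined on the neuron libraries, and in vessels the share of ENSRNOG00000043866 overlapped between them. It was 6.45% to 16.3% in vessels of low-share animals and 9.69% to 40.6% in those of high-share animals. In the low-share early vessel libraries most members were scarcely detected, since 219 to 393 of the 511 had no count there. Animal 349 lacked a count at 9 members, animal 383 at 90 and the late vessel libraries at 3 to 129. These early libraries held fewer genes in general: 4104 to 8752 IDs with a count in the low-share early vessels, 11754 in animal 349, 10207 in animal 383 and 9875 to 11974 in late vessels. Of the other 7549 IDs, 10.3% to 52.7% had no count in the low-share early vessels and 0.742% to 7.03% in the late ones.

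The member level in early Wistar vessels was 1.49 in animal 340, 0 in 343, 0 in 346, 4.80 in 349 and 0 in 368, and in late Wistar vessels 4.65 in 350, 4.89 in 351, 5.35 in 353 and 4.17 in 354. In early SHRSP vessels it was 0 in animals 374, 377, 380 and 386 and 4.31 in 383, and in late SHRSP vessels 2.94 in 378, 4.30 in 379, 5.06 in 381, 4.25 in 382 and 5.27 in 384. The stages overlapped in both strains, through animals 349 and 383 alone.

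Every late vessel library lay above every early one at 28 members in Wistar, against 2.79% of the 8060 IDs, and at 41 members in SHRSP, against 4.54%. At 50 members the 9 late vessel libraries lay above the 8 low-share early ones, against 2.02%. On the log2(CPM+1) scale the late mean exceeded the low-share early mean by a median of 3.16 over the members in Wistar and 3.36 in SHRSP. For the other 7549 IDs these medians were 1.17 and 2.36. Against animal 349 the late Wistar vessels differed by -0.27 at the median member, with quartiles of -0.85 and 0.35. Against animal 383 the late SHRSP vessels differed by 0.05, with quartiles of -0.96 and 1.28. For the other IDs these medians were -0.03 and -0.15. The early high-share animals and the late ones thus had about the same level in vessels at the median member, with a wide spread over members.

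With all 19 vessel libraries in the fit, no member was called higher or lower in late vessels by edgeR's quasi-likelihood test. This held for Wistar, for SHRSP, for the mean of the strains and for the change of the stage difference with strain, over the 504 members that passed the filter on low counts. Among IDs at 10 CPM or more in neurons, 0.0% were called higher in each of the 4 comparisons, and 0.0124%, 0.0124%, 0.0498% and 0.0% were called lower. The members' median log2 fold was 1.22 in Wistar, 2.27 in SHRSP and 1.79 for the mean of the strains, against 0.21, 0.45 and 0.38 over all 11011 IDs tested. Positive folds were found at 436, 450 and 473 of the 504 members, against 54.6%, 56.8% and 59.3% of IDs at 10 CPM or more in neurons.

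At an unadjusted p under 0.05 there were 11 members in Wistar, 117 in SHRSP, 129 for the mean of the strains and 36 for the change with strain. The shares of IDs at 10 CPM or more in neurons were 1.26%, 9.27%, 7.62% and 3.92%. The stage difference was larger in SHRSP than in Wistar vessels by a median of 1.16 over the members, and the smallest edgeR adjusted p of this change was 0.468. That median was -0.33 without animal 349 and 5.21 without animal 383, when 1 member was called, against 0.0622% of IDs called higher. Medians of this change over other IDs are not given here. On the log2(CPM+1) scale the members' late-minus-early medians were 2.52 in Wistar and 2.81 in SHRSP vessels. For the other 7549 IDs they were 0.93 and 1.88. The larger SHRSP difference is therefore not shown to be particular to the members. In SHRSP 45 of the tested members, and in Wistar 4, had no count in any early vessel library. With those set to a bound from 3 counts over the early group, the members' median edgeR folds were 2.26 in SHRSP and 1.22 in Wistar.

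The calls depended on animals 349 and 383. Without animal 349 there were 98 members called higher for the mean of the strains, against 2.74% of IDs at 10 CPM or more in neurons. Without animal 383 there were 179, against 8.74%, and 176 in SHRSP, against 13.5%. Without both, 301 of 498 members were called higher for the mean of the strains, against 16.3%, and 260 in SHRSP, against 18.4%, while Wistar still gave 0 calls. Those animals were left out after the data had been seen, and the remaining fit sets late high-share against early low-share animals, so that stage and library set cannot be told apart in it.

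Within the high-share animals, where stage can be compared inside 1 set but with 1 early animal per strain, 0 members were called for the mean of the strains, against 0.0745% of IDs called higher. In SHRSP 1 of 511 was called higher, against 0.285%. In these fits the lone early animal of a strain is assumed to vary like the late animals. The members' medians there were -0.12 in Wistar, 0.60 in SHRSP and 0.35 for the mean. With the library set as a term in the fit of all 19 libraries the medians were -0.55, 0.66 and -0.30. That fit gave 0 calls, and no share over IDs is given here for it. The Wistar median was thus negative in both fits, and that of the mean was negative with the set as a term.

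The tools also differed. DESeq2 called 39 members higher in SHRSP vessels, against 3.03% of IDs at 10 CPM or more in neurons, and 26 for the mean of the strains, against 1.16%. Limma voom called 157 in SHRSP, against 16.0%, and 340 for the mean, against 25.8%. On voom's log scale the median over all IDs tested was itself 1.89 for the mean of the strains, against 0.38 in edgeR.

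**Figure D5:**
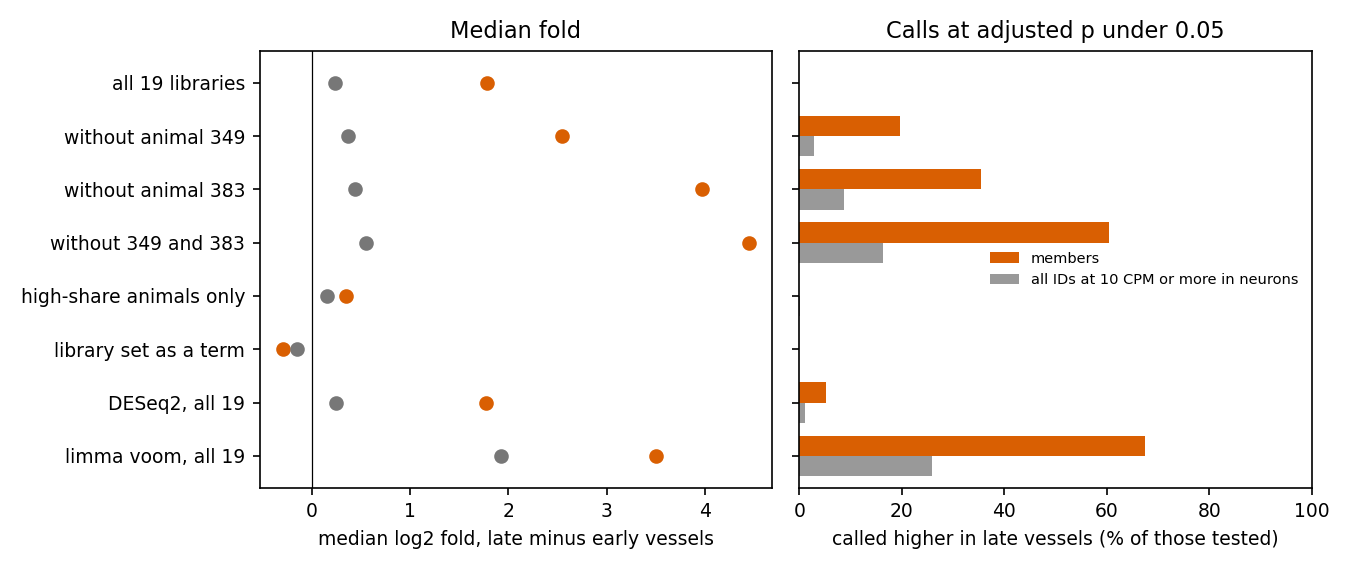
Late minus early vessels, mean of the strains, for the members (orange) and for all IDs at 10 CPM or more in neurons (grey): the left panel gives the median log2 fold and the right panel the percentage called higher at an adjusted p under 0.05. Members' medians run from -0.30 with the library set as a term to 4.45 without animals 349 and 383, and both kinds of ID are called more often without those animals.

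ENSRNOG00000055330 had the smallest p for the mean of the strains. Its early Wistar vessels had 0 CPM in animals 340, 343 and 368, 0.836 in 346 and 0.421 in 349, and its late ones 5.19 in 350, 48.8 in 351, 18.5 in 353 and 27.5 in 354. All 5 early SHRSP vessels had 0, and the late ones had 0 in 378, 31.6 in 379, 37.6 in 381, 26.1 in 382 and 25.6 in 384. Unlike most members it was as low in animals 349 and 383 as in the other early vessels, and only the late animal 378 overlapped with them. The edgeR adjusted p was 0.0539. In SHRSP the late mean of 24.2 CPM was at least 91.6-fold higher than 3 counts over the early group, and at least 79.0-fold without animal 381.

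ENSRNOG00000003834 was second for the mean of the strains, with an edgeR adjusted p of 0.0591. Its early Wistar vessels had 0 CPM in animal 340, 0.345 in 343, 0.418 in 346, 7.16 in 349 and 0.316 in 368, and its late ones 36.3 in 350, 53.7 in 351, 54.5 in 353 and 12.9 in 354. All 5 early SHRSP vessels had 0, and the late ones had 0 in 378, 11.5 in 379, 42.8 in 381, 24.9 in 382 and 20.9 in 384. The Wistar stages did not overlap, and in SHRSP animal 378 tied with the early ones. The late SHRSP mean was at least 75.9-fold higher than 3 counts over the early group, and at least 54.3-fold without animal 381.

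In SHRSP vessels the smallest p belonged to ENSRNOG00000005726, a member of 543 CPM on average in neurons. It had 1.69 CPM in animal 374, 1.33 in 377, 1.18 in 380, 188 in 383 and 0.414 in 386 early, and 315 in 378, 189 in 379, 442 in 381, 346 in 382 and 455 in 384 late. The stages did not overlap, although animals 383 and 379 were close. The log2 fold was 3.26 (SE 0.80, edgeR adjusted p = 0.177), and without animal 383 it was 8.04 and passed the threshold. In Wistar vessels it had 303 CPM in animal 340, 236 in 343, 20.5 in 346, 566 in 349 and 23.4 in 368 early, and 468, 396, 447 and 285 in animals 350, 351, 353 and 354 late, so the stages overlapped. Next in SHRSP was ENSRNOG00000050343, with 0 CPM in 4 early vessels and 0.392 in animal 383, and 0.446 in 378, 27.3 in 379, 54.7 in 381, 50.5 in 382 and 30.4 in 384 late. Its edgeR adjusted p was 0.188.

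In Wistar vessels the smallest p among higher members belonged to ENSRNOG00000060946 and ENSRNOG00000014330, each without a count in all 5 early libraries. ENSRNOG00000060946 had 10.99 CPM in animal 350, 0.309 in 351, 49.4 in 353 and 12.6 in 354 late, at least 79.6-fold above 3 counts over the early group, and at least 34.6-fold without animal 353. ENSRNOG00000014330 had 12.8 CPM in 350, 25.9 in 351, 22.5 in 353 and 0 in 354, at least 66.5-fold above, and at least 51.1-fold without animal 351. Both had an edgeR adjusted p of 0.718. They were thus at 0 even in animal 349, whose vessel library had 11754 IDs with a count.

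Few members had lower values in late vessels, and none passed the test. In Wistar these were led by ENSRNOG00000061132, with 126 CPM in early animal 346, 7.16 in 349 and 0 in the other early vessels, against 0, 0, 7.86 and 6.12 in late animals 350, 351, 353 and 354. ENSRNOG00000001074 had 202 CPM in early animal 343 and 0 in the other early Wistar vessels. In SHRSP, ENSRNOG00000045918 had 522 CPM in early animal 377 and 0 to 31.4 in the others, and ENSRNOG00000006911 had 250 CPM in early animal 374 and 0 to 54.9 in the others. For the mean of the strains, ENSRNOG00000059456 had a log2 fold of -1.97 (SE 1.47, edgeR adjusted p = 0.703) and ENSRNOG00000013729 one of -1.82 (SE 1.51, edgeR adjusted p = 0.756).

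Between the materials the members lay on the neuron side. In a fit of all 38 libraries with the animal as a block, 440 of the 511 members were lower in vessels than in neurons and 0 were higher by edgeR's quasi-likelihood test at an adjusted p of 0.05. Among IDs at 10 CPM or more in neurons 45.6% were lower and 2.26% higher. The level minimum of the rule was set in neurons, which favours the neuron side for members and for these IDs. The members lay nearer that minimum, with a median of 28.0 CPM in neurons against 41.6 for the 8060 IDs. These IDs are therefore not matched to the members in level, and the neuron libraries of this fit are those that chose the members. The members' median log2 fold, vessel minus neuron, was -2.71, against -1.39 over those IDs and -1.63 over the 12117 tested.

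The difference was larger in the low-share than in the high-share animals, which was not tested. In those 8 alone, 286 of 493 members were lower in vessels, against 25.9% of IDs, with a median of -5.13. In the 11 high-share animals, with 1 early animal per strain, the members' median was -1.04. Vessels of low-share animals lacked counts in general, with 10.3% to 52.7% of the other IDs at 10 CPM or more in neurons at 0. Medians over those IDs are not given here, so the larger difference is not shown to be particular to the members. Without the block, over all 38 libraries, 165 members were lower, against 13.4% of IDs, with a median of -1.08. No member had all 19 neuron libraries above all 19 vessel libraries, against 0.0993% of IDs, and 15 were higher in neurons than in vessels in every animal, against 1.45%.

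The most neuron-sided members were ENSRNOG00000010440 and ENSRNOG00000059876. ENSRNOG00000010440 ran from 2.59 CPM in animal 380 to 53.8 in animal 379 in neurons. In vessels it had 1.68 CPM in early animal 349, 10.6 in early animal 383, and late 0.68 in 354, 19.6 in 381 and 1.90 in 384, with no count in the other 14. Its log2 fold was -6.43 (SE 1.04, edgeR adjusted p = 9.06e-08). ENSRNOG00000059876 ran from 0 CPM in animal 343 to 22.1 in animal 353 in neurons, and in vessels it had 4.63 CPM in animal 349, 0.392 in 383, 12.7 in 351 and 23.7 in 384, with no count in the other 15. Its log2 fold was -6.14 (SE 1.15, edgeR adjusted p = 6.51e-06). Both were thus detected in vessels of high-share animals alone. For ENSRNOG00000059876 the materials also met at 0 in the neuron library of the low-share animal 343.

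At the other end, ENSRNOG00000012002 had the most vessel-sided fold of the members, 0.59, and ENSRNOG00000005865 the next, 0.38, and neither passed the test. ENSRNOG00000012002 ran from 0.406 CPM in animal 343 to 41.6 in animal 379 in neurons. In vessels it had 58.5 CPM in animal 340, 3.10 in 343, 0 in 346, 61.0 in 349 and 3.79 in 368 in early Wistar and 25.5 to 131 in late Wistar animals. In SHRSP vessels it had 106 CPM in animal 374, 0 in 377, 0.79 in 380, 153 in 383 and 0 in 386 early and 92.5 to 144 late. The early vessels thus ranged from no count to the late level, and in the high-share animals alone this member was called higher in vessels, with a log2 fold of 2.26.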

How the data were processed

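Laser-microdissected cortical neurons and blood vessels of 19 rats were sequenced from the 3′ ends of their transcripts, with RNA isolated by the PicoPure kit and libraries made by the QuantSeq forward kit, per the labels' protocols. The deposited values are raw counts, whole numbers for 32883 Ensembl gene IDs in 38 libraries. Per the submitters' processing notes, the tools included STAR 2.5.3a and HTSeq 0.6.1, with FastQC 0.11.5 and DESeq2 1.18.1 also listed. The sources used here do not give the reference build, the gene annotation or whether strand was used. Overlapping and near-identical genes cannot be separated in such counts.

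CPM are counts per 1000000 of the total without ENSRNOG00000043866, with a pseudocount of 1 on the log2 scale. Tests used edgeR 4.0.16 in R 4.3.3, quasi-likelihood F tests with TMM scaling and the filter on low counts based on group sizes, two-sided, with Benjamini-Hochberg adjustment over all IDs tested and calls at an adjusted p under 0.05. Within a material the fit held all 19 libraries with the 4 groups as terms, and between materials all 38 with the animal as a block, since the number in the titles ties the 2 libraries of an animal. DESeq2 1.42.0 and limma 3.58.1 were alternatives, beside other scaling, no filter, the library set (a share of ENSRNOG00000043866 in neurons below or above 15%) and each animal left out. The vessel test for the mean of the strains, the neuron strain test and the test between materials were also run on simulated data. The outcome is not given here. The simulated counts had neither pairing within animals nor library sets. The vessel tests within a strain and of the change with strain were not simulated. Standard errors (SE) of log2 folds were taken from the F statistics. A fold against a group without counts is a bound from 3 counts over that group, for counting error only. The neuron stage comparison chose the members and was not tested.

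Replicates are separately numbered animals. The members and lists were chosen with earlier results of these data known. None of the 32883 IDs matched the reference used, 0 in all, so 38 gene lists could not be applied and no sequence is shown. IDs were named by rank: per comparison up to 2 higher and 2 lower members with the smallest p, 2 each for the largest mean difference, the highest level and either end of the comparison of materials, 1 per direction for the strain gap, and 2 on each side of each threshold.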

Additional observations from a re-analysis of the deposited data

Results flagged for a closer look

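A library was taken to stand apart where Dixon's ratio, its gap to the nearest library divided by the range of the group, passed its critical value. This was examined in 152 groups of 4 or 5 libraries. They covered the member level, the members' share of counts and the CPM of members named above, not all of them in both materials. The marks are therefore not a full list over the named members. Chance marks about 1 in 20 groups of normally distributed values, a rate that need not hold where most values are 0. In all 39 were marked, many of them for 1 library with counts among libraries at or near 0.

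Animal 383 stood above the other early SHRSP libraries in the member level, at 4.63 in neurons and 4.31 in vessels on the log2(CPM+1) scale, and in the members' share of counts, at 10.1% and 9.25%. Animal 349 stood above the other early Wistar vessels with a member share of 15.8%.

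In neurons, animal 349 stood apart at ENSRNOG00000047459 with 91.7 CPM and at ENSRNOG00000033894 with 42.6 CPM. Animal 383 stood apart at ENSRNOG00000047459 with 78.3, at ENSRNOG00000033894 with 45.8 and at ENSRNOG00000030478 with 72540 CPM. Late neurons gave 40.3 CPM for ENSRNOG00000031993 in animal 350, above its group, and 11.9 CPM for ENSRNOG00000059876 in animal 378, below its group.

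In early vessels animal 349 stood above its group at ENSRNOG00000030478 with 119221 CPM, at ENSRNOG00000062127 with 14192, at ENSRNOG00000003834 with 7.16, at ENSRNOG00000010440 with 1.68 and at ENSRNOG00000059876 with 4.63. Animal 383 stood above its group at ENSRNOG00000033894 with 32.6 CPM, at ENSRNOG00000060946 with 10.2, at ENSRNOG00000014330 with 21.6, at ENSRNOG00000005726 with 188, at ENSRNOG00000050343 with 0.392, at ENSRNOG00000010440 with 10.6 and at ENSRNOG00000059876 with 0.392.

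Low-share early vessels with a single high value were animal 346 at ENSRNOG00000061132 with 126 CPM, and animal 343 at ENSRNOG00000001074 with 202, at ENSRNOG00000059456 with 92.7 and at ENSRNOG00000013729 with 40.3. In SHRSP these were animal 377 at ENSRNOG00000045918 with 522 CPM, animal 374 at ENSRNOG00000006911 with 250, animal 386 at ENSRNOG00000059456 with 128 and animal 380 at ENSRNOG00000013729 with 137. All 8 values belong to members whose other vessel libraries of the group were between 0 and 54.9 CPM.

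In late vessels animal 384 stood above its group at ENSRNOG00000062127 with 18042 CPM, at ENSRNOG00000013729 with 17.1 and at ENSRNOG00000059876 with 23.7. Animal 353 had 18.0 CPM of ENSRNOG00000013729, animal 354 had 0.68 and animal 381 had 19.6 CPM of ENSRNOG00000010440, and animal 351 had 12.7 CPM of ENSRNOG00000059876.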

How the results depend on the processing

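Called members changed most with the tool and with the animals in the fit; causes were not tested beyond what each setting leaves out. With DESeq2, 39 members were called in SHRSP vessels and 26 for the mean of the strains, against 3.03% and 1.16% of IDs at 10 CPM or more in neurons. DESeq2 also called 1 higher in Wistar vessels, 4 higher for the change with strain and 1 lower in the neuron strain comparison, against 0.0249%, 0.609% and 0.682% of IDs at 10 CPM or more in neurons. With limma voom 157 were called in SHRSP vessels and 340 for the mean, against 16.0% and 25.8% of those IDs called higher. It also called 1 in Wistar vessels, for which no share over IDs is given here. DESeq2-type scaling gave 1 for the mean of the strains, again with no share over IDs given here. Without animals 349 and 383, an alternative chosen after seeing the data, the counts were 260 in SHRSP, 301 for the mean and 1 for the change with strain. Of IDs at 10 CPM or more in neurons, 18.4% were called higher there in SHRSP and 16.3% for the mean. No share over IDs is given here for the change with strain. With each animal left out in turn the counts were 0 throughout in Wistar vessels, 0 to 176 in SHRSP, 0 to 179 for the mean, 0 to 1 for the change with strain and 0 to 3 in the neuron strain comparison. The counts of 176 and 179, without animal 383, stood against 13.5% and 8.74% of those IDs called higher. The 3 in the neuron strain comparison, without animal 343, stood against 0.434% called lower. In the comparison of materials 410 to 462 were called, against 440 with all animals. No share over IDs is given here for that range. With all animals 45.6% of IDs at 10 CPM or more in neurons were called lower and 2.26% higher. In the low-share animals 287 members were called, and 166 with no replicate block, that is without pairing the 2 libraries of an animal. Of those IDs 25.9% and 13.4% were called lower there. In the high-share animals, with 1 early animal per strain, 110 members were called, against 13.7% of those IDs called lower.

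The rule selected 254 IDs with ENSRNOG00000043866 kept in the totals, 335 at 20 CPM or more and 171 at a threshold of 1.5 log2 units. With 1 animal left out it selected 432 (without animal 343) to 563 (without animal 383). No result changed its called direction under the alternatives run, but the main fits called members in the comparison of materials alone. The vessel stage and neuron strain comparisons therefore had no called direction that could change. In vessels the members' median late-minus-early fold did change sign. It was positive in the main fit for Wistar and for the mean of the strains. Both medians were negative after a term for low or high share was added. That of Wistar was also negative when low-share animals were left out. Of the values of named members under the alternatives, 612 kept their side of the threshold, 25 passed it newly and 11 moved by more than the spread. In low-share early vessels 219 to 393 members had no count at totals of 1612966 to 3504132 counts, so a fold against such a member is a bound. The part of depth in this was not tested.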
